A study of Mus musculus with 2 samples.

Results

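Target genes of the tumour suppressor p53 were followed in nuclei of newborn mouse ureter with and without deletion of ΔNp63. The set held 10 genes, Cdkn1a, Mdm2, Ccng1, Phlda3, Bbc3, Zmat3, Sesn2, Bax, Eda2r and Trp53inp1, of the 32589 genes in the count tables. It was chosen by name as widely known targets, with earlier results of these data known. All 10 had unique molecular identifiers (UMIs, each standing for 1 captured RNA molecule) in both libraries.

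RNA of single nuclei was read from ureters at postnatal day 0. The knockout library (DNp63cKO) came from 14 pooled mice that carried Pax2-cre on 1 allele, floxed DNp63 on both (DNp63fl/fl) and the R26mTmG/+ reporter, and the control library from 13 pooled mice whose genotype is labelled wt. Cre driver and reporter were named for the knockout alone, so their effect and that of the deletion cannot be told apart. Pax2 is active in the nephric duct lineage that forms the ureter epithelium, so the smooth muscle, fibroblasts and vessels lie outside the main domain of the driver.

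The knockout library held 5528 nuclei with a median of 1298 UMIs, and the control library 9062 with a median of 1124.5. Before filtering, 58 barcodes occurred in both libraries. After filtering, 5172 and 8373 nuclei were grouped into 18 clusters without using the 10 genes. With 1 library per group no difference below has a replicate check. Intervals are 95% and cover counting error only. Levels are UMIs scaled to a class total of 1000000 (CPM), and log2 ratios are knockout over control of CPM + 5, with intervals computed without the added 5.

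p53 is a transcription factor that is kept scarce by the ubiquitin ligase MDM2 and accumulates after DNA damage and other stresses, when it switches on genes that stop the cell cycle, repair DNA or start cell death. p63 and p73 are its relatives, with a similar DNA-binding domain, and the ΔN form of p63, which lacks the full N-terminal activation domain and marks basal cells of layered epithelia, can occupy some of the same sites. The urothelium that lines the ureter is such an epithelium, with basal cells below, intermediate cells above them and uroplakin-coated superficial cells at the lumen.

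Trp63, the gene that encodes ΔNp63, was lower in the library labelled DNp63cKO. In nuclei with a urothelial profile (urothelium-like) it stood at 139 CPM (592 UMIs) against 198 CPM (1835 UMIs) in control, a log2 ratio of -0.49 (interval -0.65 to -0.38). The counts do not separate the ΔN isoform from the rest of the gene, and which exons cre removes was not given in the sources used here. For p53 itself, the gene Trp53 was at 72.0 CPM against 77.2 CPM, a log2 ratio of -0.09 (interval -0.30 to 0.10). Mdm4, which binds and restrains p53 together with MDM2, was at 213 against 255 CPM, a ratio of -0.26 (interval -0.37 to -0.15).

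Promoters of the members were searched for the p53 decamer motif, the unit that p53 binds as a pair, because Cdkn1a and Mdm2 are classic direct targets. RefSeq windows (GRCm38.p6, the assembly of the mm10 build named for the counts) reach from 250 bases before to 50 bases after a transcription start and were found for 8 of the 10 members, with none for Zmat3 and Trp53inp1. The decamer, searched by its consensus on both strands, was present in 4 of these 8, Cdkn1a, Mdm2, Ccng1 and Bax, and in 9.55% of all 27025 genes with a window. Only Cdkn1a held a pair within 13 bases of each other, an arrangement found in 0.0740% of genes. Cdkn1a had 2 such windows. In the window that held them, its decamers lay 73 and 51 bases before the transcription start, 12 bases apart. The other window held no decamer. In the stretches below, 5′ to 3′ on the strand of the gene, the capitals mark each decamer. They are, in order, from chr17:29090876-29090967 (plus strand), chr10:117710905-117710974 (minus), chr11:40755432-40755501 (minus) and chr7:45467060-45467129 (minus).
Cdkn1a: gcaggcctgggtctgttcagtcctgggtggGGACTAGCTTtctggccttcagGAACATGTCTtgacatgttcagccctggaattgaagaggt
Mdm2: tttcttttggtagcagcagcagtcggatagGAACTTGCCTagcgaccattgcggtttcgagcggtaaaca
Ccng1: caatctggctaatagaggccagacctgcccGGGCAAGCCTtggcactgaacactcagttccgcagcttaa
Bax: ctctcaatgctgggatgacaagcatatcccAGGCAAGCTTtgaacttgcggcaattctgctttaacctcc
A match is a description of letters in these windows and not a bound site, and windows without one say nothing of p53 at sites further away or within introns.

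Most members had a higher level in the epithelium than elsewhere. Within the knockout library 9 of 10 were higher in urothelium-like nuclei than in all other nuclei, 8 of them with an interval above 0 and 4 by 1.5-fold or more. Of all 14942 genes measured there, 47.7% were higher, 28.8% with an interval above 0 and 16.2% by 1.5-fold or more. Within control 8 of 10 were higher, all 8 with an interval above 0 and 6 by 1.5-fold or more, against 51.0%, 32.8% and 16.5% of 15370 genes. Cdkn1a stood out in both, with 180.3 CPM against 51.7 outside in knockout (log2 ratio 1.71, interval 1.59 to 2.01) and 237 against 63.6 in control (1.82, interval 1.72 to 2.07). Sesn2 came next, at 32.5 against 11.9 CPM (1.15) and 46.0 against 15.3 CPM (1.33). Bax was close to even, at 101 against 89.8 CPM in knockout (0.16, interval -0.02 to 0.37) and 87.8 against 88.1 in control (-0.00, interval -0.17 to 0.17).

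**Figure D1:**
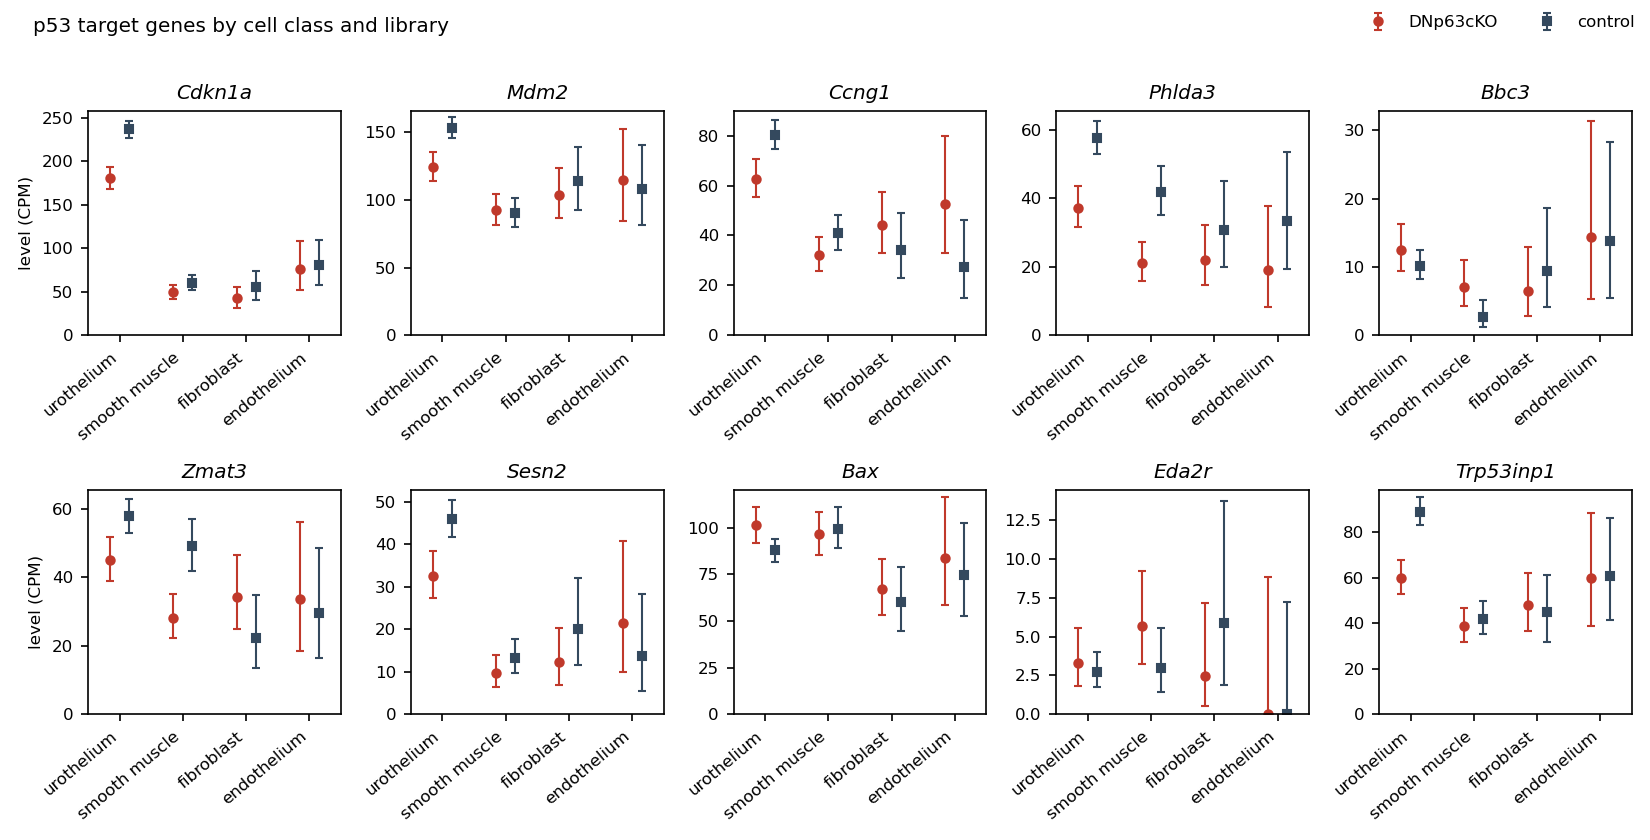
Level of each p53 target gene, in CPM, in 4 cell classes, with the knockout library as red circles and control as dark squares; bars are exact 95% Poisson intervals, covering counting error only, and each panel has its own axis from 0. Cdkn1a is highest in urothelium in both libraries, while Bax is nearly level across urothelium and smooth muscle, and Eda2r is listed at 0 in endothelium.

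The order of the levels over classes was read for each gene and library. For Cdkn1a in the knockout library it ran from urothelium-like (180.3 CPM, interval 168 to 194) over endothelium-like (76.6, 52.4 to 108) and smooth-muscle-like (49.4, 41.5 to 58.4) to fibroblast-like nuclei (42.5, 31.8 to 55.7). Control had the same order, at 237, 80.4, 60.4 and 55.3 CPM. Only the step down from urothelium was wider than the counting intervals, since those of the other 3 classes overlapped. Mdm2 varied less, from 125 CPM in urothelium-like to 92.4 CPM in smooth-muscle-like nuclei in knockout, and from 153 to 90.2 CPM in control. With the estimated free RNA, described below, subtracted, Cdkn1a was at 8.16 and 14.6 CPM (knockout and control) in smooth-muscle-like and at 0 and 7.55 CPM in fibroblast-like nuclei, so most of its level in these classes lay within that estimate. Levels of 8 of the 10 members were higher in urothelium-like than in smooth-muscle-like and in fibroblast-like nuclei in both libraries. Bax was so in knockout alone and Eda2r in neither library. Pericyte-, macrophage-, glia- and neuron-like nuclei were few, at most 87 per class and library, and only Mdm2 in pericyte-like (19 and 7 UMIs, knockout and control) and Bax in macrophage-like nuclei (17 and 5 UMIs) reached 20 UMIs over both libraries.

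The genes most like Cdkn1a, the member with the most UMIs (3515), were looked for over the 8 sums of 4 classes in 2 libraries, among 9137 genes with at least 500 UMIs. The highest Pearson correlations of log2(CPM + 5) were those of Smarca4 (0.997), Cpne3 (0.994), 4930452B06Rik (0.994), Dsg2 (0.993) and Plekhb2 (0.993). The 8 points share their library and depth by fours, and the pattern they follow is mainly high urothelium against the rest.

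In urothelium-like nuclei (2222 knockout, 5093 control) 7 of the 10 members were lower in knockout with an interval below 0, and Bax was higher with an interval above 0. Over all 14956 genes with 20 or more UMIs in this class, 48.5% were lower, 16.2% had an interval below 0 and 17.6% an interval above 0. The median log2 ratio of the members was -0.33, against 0.01 for all genes. None of the 10 passed 1.5-fold, lower or higher, where the shares of all genes were 2.79% and 3.90%. Summed over the members the level was 659 CPM (2800 UMIs) in knockout and 821 CPM (7595 UMIs) in control, a log2 ratio of -0.32 (interval -0.38 to -0.25).

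Cdkn1a (chr17:29090976-29100727, plus strand) encodes p21, the inhibitor of cyclin-dependent kinases through which p53 halts the cell cycle. It was at 180.3 CPM (766 UMIs, interval 168 to 194) in knockout and 237 CPM (2189 UMIs, interval 227 to 247) in control. The intervals did not overlap, and the log2 ratio was -0.38 (interval -0.51 to -0.27). Of the nuclei thinned to 700 UMIs, 9.68% of knockout (199 of 2056, interval 8.43 to 11.04%) and 12.3% of control (517 of 4208, interval 11.3 to 13.3%) had a Cdkn1a UMI. Unthinned shares were 21.5% and 25.2%, at median depths of 1472 and 1227 UMIs. No class here is known to lack the gene, and in thinned fibroblast-like nuclei, the lowest class, the shares were 2.39% and 3.40%.

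Mdm2 (chr10:117688875-117710758, minus strand) encodes the ligase that marks p53 for degradation and closes the feedback loop. Its level was 125 CPM (529 UMIs) in knockout and 153 CPM (1417 UMIs) in control, a log2 ratio of -0.29 (interval -0.45 to -0.15). Ccng1 (chr11:40748552-40755311, minus strand) encodes cyclin G1, which brings a phosphatase to MDM2. It stood at 62.6 CPM (266 UMIs) against 80.2 CPM (742 UMIs), a log2 ratio of -0.33 (interval -0.57 to -0.15). Both feedback genes were therefore lower in knockout by about the median of the set.

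Further members act on growth signals, RNA and stress. Phlda3 (chr1:135766119-135769136, plus strand) encodes a small pleckstrin-homology protein that competes with AKT for membrane lipids, and had 37.2 CPM (158 UMIs) in knockout and 57.5 CPM (532 UMIs) in control. That was the lowest ratio of the set, -0.57 (interval -0.89 to -0.37). Without cluster 7, the urothelial cluster described below that is almost wholly of knockout origin, it was 0.04 (interval -0.25 to 0.33). Within superficial cluster 0, also described below, it was -1.01 (interval -2.37 to -0.26), on 9 knockout and 177 control UMIs. Trp53inp1 (chr4:11156431-11174379, plus strand) encodes a stress-induced protein of the nucleus and of autophagy. It had 60.0 CPM (255 UMIs) against 89.1 CPM (824 UMIs), a ratio of -0.53 (interval -0.78 to -0.37). Sesn2 (chr4:132492032-132510501, minus strand) encodes sestrin 2, a stress-induced brake on the growth kinase mTORC1. It had 32.5 CPM (138 UMIs) against 46.0 CPM (425 UMIs), a ratio of -0.44 (interval -0.79 to -0.22). Zmat3 (chr3:32334792-32366014, minus strand) encodes an RNA-binding zinc finger protein. It had 45.0 CPM (191 UMIs) against 57.8 CPM (535 UMIs), a ratio of -0.33 (interval -0.61 to -0.12). All 4 were lower in knockout beyond counting error in the pooled class. Sesn2 overlaps Gm12981 and Bax overlaps Gm45808 on the same strand, and these partners had 14 and 22 UMIs in all.

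The other 3 members act in cell death. Bax (chr7:45461697-45466898, minus strand), which forms pores in the outer mitochondrial membrane, was at 101 CPM (430 UMIs, interval 91.9 to 111) in knockout and 87.8 CPM (812 UMIs, interval 81.9 to 94.0) in control. Its log2 ratio was 0.19 (interval 0.03 to 0.38), although the 2 level intervals overlapped slightly. Bbc3 (chr7:16308393-16318205, plus strand) encodes PUMA, which frees BAX from its inhibitors. It had 12.5 CPM (53 UMIs) and 10.2 CPM (94 UMIs), a ratio of 0.20 (interval -0.22 to 0.80). Eda2r (chrX:97333840-97377216, minus strand) encodes a receptor of the tumour necrosis factor family and was barely detected, with 14 UMIs in knockout and 25 in control, a ratio of 0.11 (interval -0.77 to 1.29). For the last pair no difference was detectable at this depth.

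**Figure D2:**
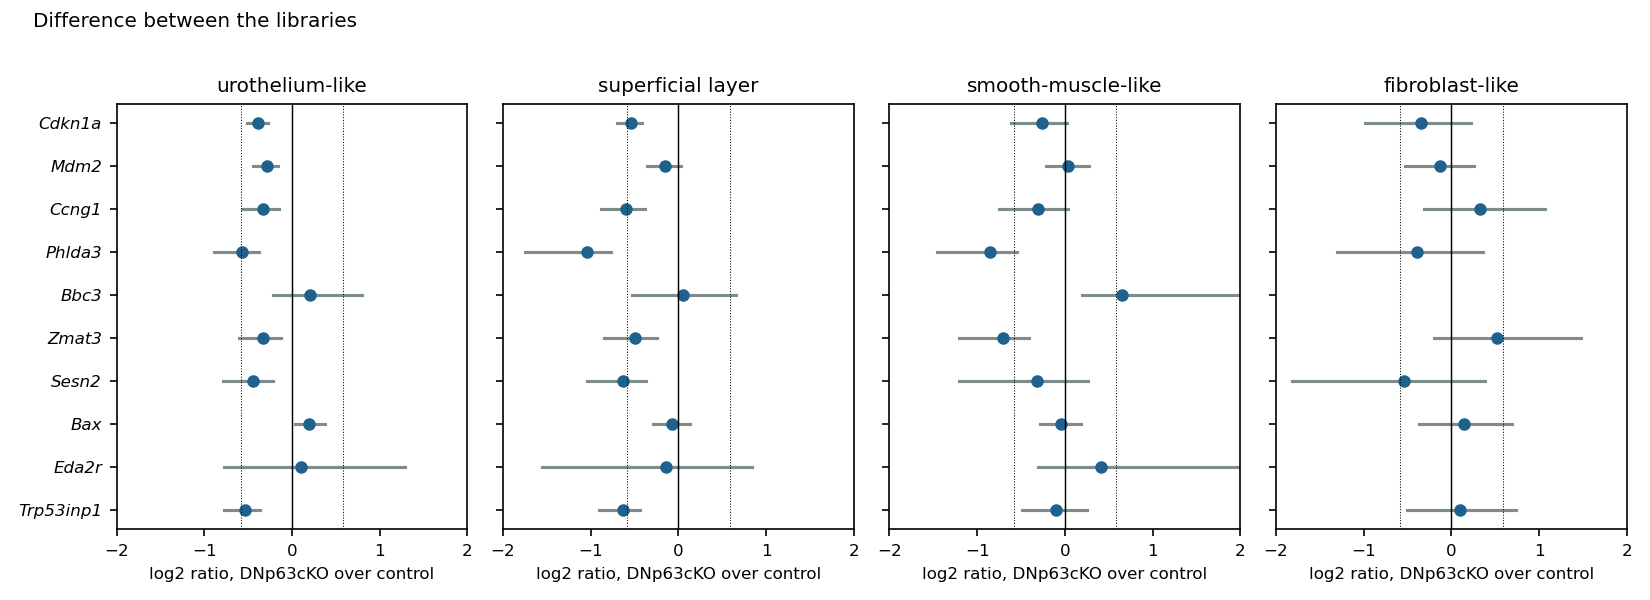
Log2 ratio of knockout over control for each p53 target gene with 20 or more UMIs, in urothelium-like nuclei, their superficial layer, smooth-muscle-like and fibroblast-like nuclei; grey lines are 95% counting intervals, drawn to the axis limits where they go beyond, and dotted lines mark 1.5-fold. In urothelium-like nuclei 7 points with their lines lie left of 0 and Bax lies right of it, while in fibroblast-like nuclei every line crosses 0.

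Several other measures moved with these ratios. Urothelium-like nuclei were 43.0% of the kept knockout nuclei and 60.8% of control. The uroplakin level in fibroblast-like nuclei, set against that of the whole library, put the share of free RNA at 39.7% in knockout and 28.2% in control. Within urothelium-like nuclei the 10 fibroblast markers summed to 1395 CPM in knockout against 947 in control, the 10 smooth muscle markers to 1184 against 842 CPM and the 6 mesothelium markers to 844 against 377 CPM. The 8 pericyte markers went the other way, at 243 against 576 CPM, with Higd1b at 0 in knockout. None of the fibroblast or smooth muscle markers was at 0 in either library, and of the mesothelium markers Bnc1 was at 0 in knockout and Bnc1 and Lrrn4 in control. With the estimated free RNA subtracted, the summed ratio was -0.24 in place of -0.32, and the same 7 members had ratios below 0, from -0.52 (Trp53inp1) to -0.23 (Cdkn1a), with Bax at 0.22.

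Division of the urothelium into layers used basal and superficial markers. The basal layer was cluster 1 (353 knockout and 1404 control nuclei, led by Krt5 and Krt14), the intermediate layer cluster 3 (260 and 1249) and the cycling nuclei cluster 6 (354 and 701). Superficial nuclei fell into cluster 0 (298 and 1550, led by Gm28856 and Clu) and cluster 7 (936 and 27, led by Spp1, Itih3 and Msln), so that a different cluster held most of the layer in each library. Neither superficial cluster had a urothelium marker among its 10 leading genes, and cluster 7 had 1 mesothelium marker there. Cluster 7 is called superficial from the fixed layer markers, uroplakins among them. At a clustering resolution of 0.5 the layer was a single cluster of 1301 and 1875 nuclei whose leading genes held 2 urothelium markers and none of another class. The small cluster 12 (21 and 162), led by genes that include the mast cell marker Tpsb2, scored as basal by the layer markers. It was left out of the basal layer but stayed in the urothelium-like class. Like cluster 7, which was kept as superficial, it had no urothelium marker and 1 marker of another class among its 10 leading genes.

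The layers were first set against each other within each library. In control, 8 of the 10 were higher in superficial than in basal nuclei, all 8 with an interval above 0 (background 17.1% of 13180 genes) and 7 by 1.5-fold or more (background 9.43%), with a median log2 ratio of 0.77. Eda2r, in all of these counts, had 21 superficial UMIs and 1 basal UMI. It met the limit of 20 UMIs only through the layer where it was high, and in knockout, with 10 and 1, it was left out. In knockout, 7 of the 9 members with 20 or more UMIs in the 2 layers were higher, 4 by 1.5-fold or more (background 14.1% of 11944 genes) and 2 with an interval above 0 (background 13.3%), with a median of 0.43. Over all genes, 36.2% in control and 43.9% in knockout were above 0.

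Cdkn1a was higher toward the lumen, at 131 CPM (basal) and 203 CPM (superficial) in knockout, a log2 ratio of 0.61 (interval 0.29 to 0.99), and at 167 and 298 CPM in control, a ratio of 0.82 (interval 0.68 to 1.004). Trp53inp1 did likewise, at 39.3 and 74.1 CPM in knockout (0.83, interval 0.30 to 1.59) and 57.4 and 118 CPM in control (0.98, interval 0.76 to 1.32). For Ccng1 the layers were clearly apart in control, at 48.5 and 107 CPM (1.06, interval 0.84 to 1.44), and not in knockout, at 60.7 and 68.9 CPM (0.17, interval -0.33 to 0.73). Sesn2 showed the same, with 24.0 and 60.2 CPM in control (1.17, interval 0.91 to 1.76) and 26.2 and 37.0 CPM in knockout (0.43, interval -0.27 to 1.36). Bax was at 65.0 and 111 CPM in control (0.73, interval 0.51 to 1.04) and at 88.5 and 105 CPM in knockout (0.23, interval -0.18 to 0.69). Whether these steps differ between the libraries was not tested, as each genotype has 1 library.

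Phlda3 ran the opposite way. It was at 78.7 CPM in basal and 16.5 CPM in superficial nuclei of the knockout, a log2 ratio of -1.96 (interval -2.87 to -1.64), and at 75.9 and 39.2 CPM in control, a ratio of -0.87 (interval -1.26 to -0.65). It was the only member that was basal-high by 1.5-fold, in a direction that 18.0% of genes in knockout and 19.0% in control shared at that size. Mdm2 was nearly flat, at 123 CPM in both layers in knockout and at 159.9 CPM (basal) and 137 CPM (superficial) in control, a ratio of -0.21 (interval -0.40 to -0.03). Trp53 was itself basal-high in both libraries, at 129.5 against 41.8 CPM in knockout (-1.52) and 99.98 against 58.9 CPM in control (-0.72), and so was Trp63, at 272 against 90.6 CPM (-1.54) and 356 against 86.6 CPM (-1.98). In control the gene for p53 and most of its listed targets thus had their higher levels in different layers. In knockout 7 of 9 members had superficial-high values, but only 2 had an interval above 0. Over all genes 36.2% in control and 43.9% in knockout were above 0 in this contrast, so basal-high genes like Trp53 were the majority.

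**Figure D3:**
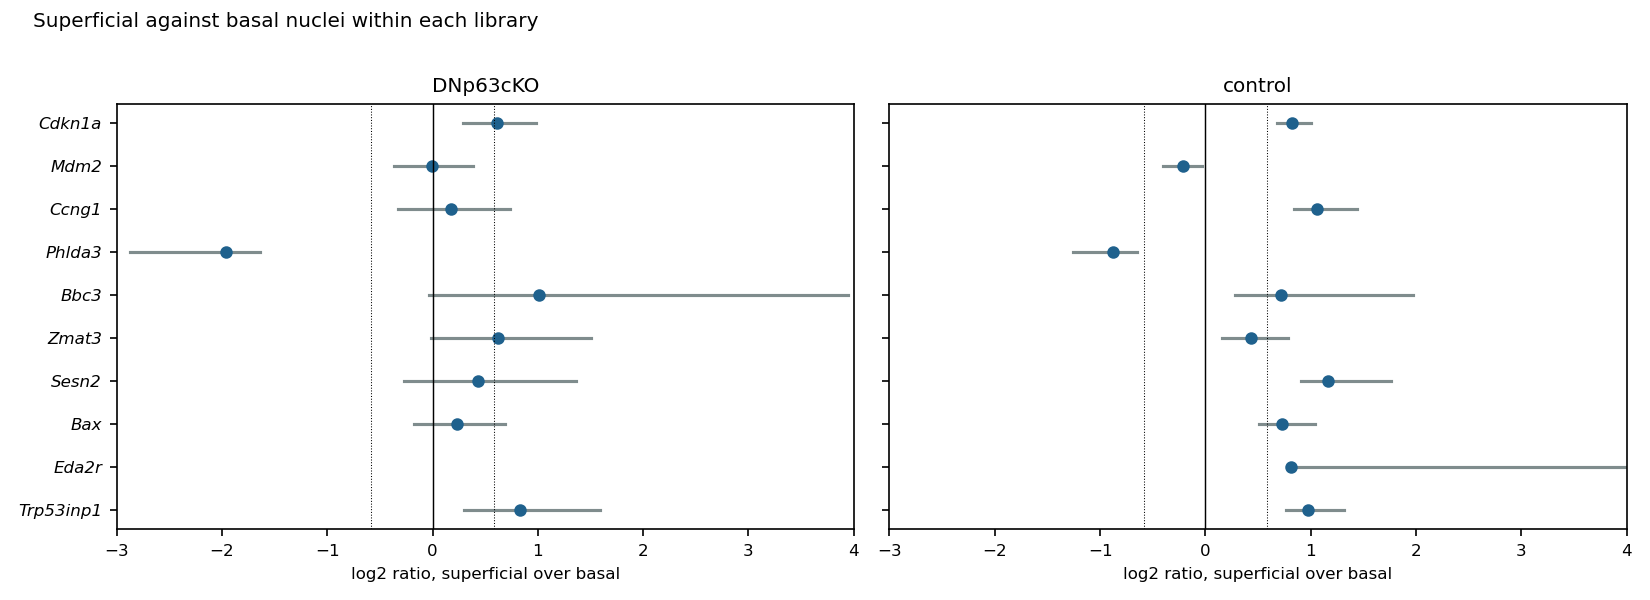
Log2 ratio of the superficial over the basal layer within each library for members with 20 or more UMIs in those layers; grey lines are 95% counting intervals cut at the axis limits, and dotted lines mark 1.5-fold. Phlda3 lies left of 0 in both libraries, Mdm2 near 0, and the other members lie right of 0.

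Cycling nuclei had levels near those of basal nuclei. Of the 8 members with 20 or more UMIs in both layers together, none in knockout and 2 in control, Zmat3 (-0.66, interval -1.38 to -0.15) and Trp53inp1 (-0.52, interval -1.14 to -0.04), had an interval below 0 (backgrounds 7.27% and 9.67%), and none had 1 above. Cdkn1a, whose product blocks the cell cycle, was at 151 CPM in cycling against 131 CPM in basal nuclei of the knockout (0.20, interval -0.24 to 0.65) and at 139.9 against 167 CPM in control (-0.24, interval -0.55 to 0.03). No lower level in cycling nuclei was therefore detectable for Cdkn1a at this depth. Mki67, a marker of dividing cells, was at 671 CPM in these nuclei in knockout and 611 CPM in control, against 100.02 and 48.9 CPM in basal nuclei.

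**Figure D4:**
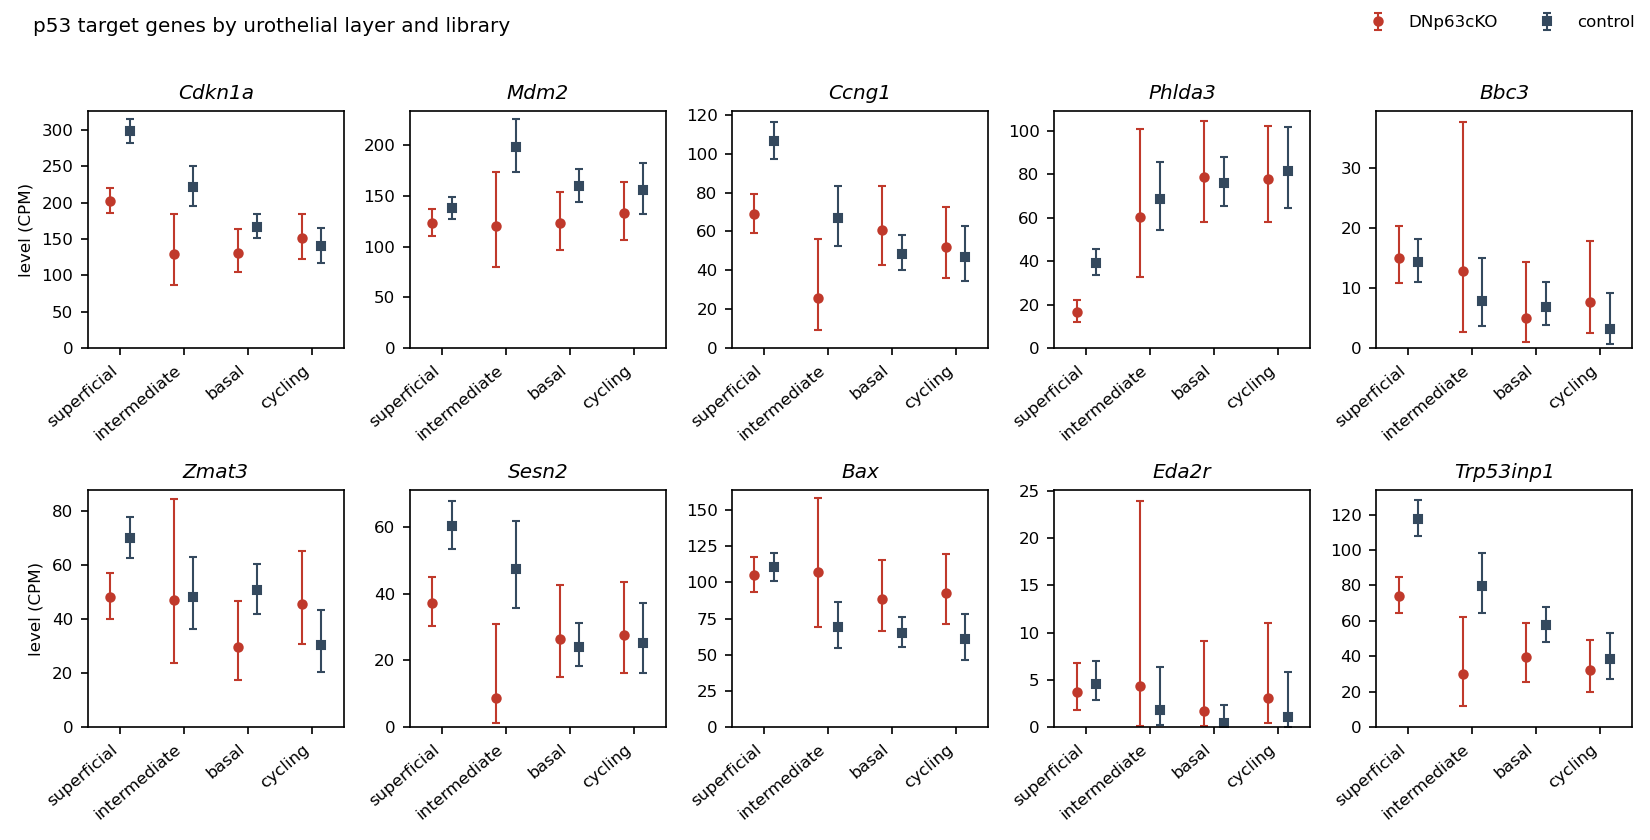
Level of each p53 target gene, in CPM, in 4 urothelial layers, with the knockout library as red circles and control as dark squares; bars are exact 95% Poisson intervals, and each panel has its own axis from 0. In control Cdkn1a, Ccng1, Sesn2 and Trp53inp1 step down from superficial to basal, Phlda3 steps up, and the superficial points of the 5 genes are lower in knockout.

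The difference between the libraries was then read within layers. In superficial nuclei (1234 and 1577) 9 of the 10 members were lower in knockout (background 42.7%), with a median log2 ratio of -0.52 against 0.06 for all 13321 genes. In 6 the interval lay below 0 (background 14.6%) and 4 were past 1.5-fold (background 4.49%), and none was higher with its interval above 0 (background 20.2%). Summed, the members were at 694 CPM in knockout and 959 CPM in control, a ratio of -0.47 (interval -0.55 to -0.39). Median depth differed in the other direction from the whole class, at 1679 UMIs in knockout and 2399 in control.

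Phlda3 had the lowest ratio there, at 16.5 CPM (45 UMIs) against 39.2 CPM (181 UMIs), -1.04 (interval -1.75 to -0.77). Trp53inp1 was at 74.1 CPM (202 UMIs) against 118 CPM (544 UMIs), -0.63 (interval -0.91 to -0.43), and Sesn2 at 37.0 CPM (101 UMIs) against 60.2 CPM (278 UMIs), -0.63 (interval -1.04 to -0.37). Ccng1 was at 68.9 CPM (188 UMIs) against 107 CPM (493 UMIs), -0.60 (interval -0.88 to -0.39). These 4 were the members past 1.5-fold. Cdkn1a followed at 203 CPM (553 UMIs) against 298 CPM (1377 UMIs), -0.54 (interval -0.70 to -0.41), and Zmat3 at 48.0 against 69.9 CPM, -0.50 (interval -0.85 to -0.24). Mdm2 (-0.16), Bax (-0.07), Bbc3 (0.05) and Eda2r (-0.14) had intervals that included 0. The share of superficial nuclei with a Cdkn1a UMI was 10.6% in knockout and 16.1% in control after thinning to 700 UMIs (26.6% and 43.7% unthinned), and with any of the 10 members 33.6% and 46.5%.

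The 2 superficial clusters were also read apart. In cluster 0 alone, 8 of 10 members were lower in knockout (background 50.2%), with a median of -0.67, and Cdkn1a was at 143 CPM (77 UMIs) against 297 CPM (1355 UMIs), -1.03 (interval -1.40 to -0.72). Eda2r, counted among the 8, had 0 knockout and 21 control UMIs there, so it met the UMI limit only through control. In cluster 7 the control had 27 nuclei and 64 UMIs of the set, and 7 of 9 members were lower (background 47.0%), with a median of -0.33. In 3 of them, Cdkn1a, Phlda3 and Trp53inp1, the interval lay below 0 (background 4.02%). Zmat3 (0.50, interval -1.33 to 3.62) and Sesn2 (0.22, interval -1.65 to 3.32) were at higher values in knockout, each on 2 control UMIs. At the coarser clustering the single superficial cluster gave 9 of 10 lower (background 43.0%) and a median of -0.54. Fibroblast markers in the superficial layer summed to 1317 CPM in knockout against 696 in control, and smooth muscle markers to 1103 against 551 CPM, with none at 0. Their part in the ratios was not tested beyond the free RNA subtraction, after which Phlda3 was at -1.54, Trp53inp1 at -0.60 and Cdkn1a at -0.42 in this layer.

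The other layers were read in the same way. In intermediate nuclei (260 and 1249) 7 of 8 members were lower (background 51.4%), with a median of -0.73 against -0.02 for all 9985 genes. Summed, the members were at 545 CPM in knockout and 810 CPM in control, a ratio of -0.57 (interval -0.85 to -0.30). The interval lay below 0 in 5 members (background 5.20%), all past 1.5-fold (background 14.4%), with Cdkn1a at 129 against 221 CPM, -0.76 (interval -1.38 to -0.23), and Mdm2 at 120.1 against 198 CPM, -0.70 (interval -1.35 to -0.15). The other 3, Sesn2, Trp53inp1 and Ccng1, had 2, 7 and 6 knockout UMIs. In basal nuclei (353 and 1404) 4 of 8 were lower (background 52.0%) and the median was -0.14, with Mdm2 (-0.37, interval -0.76 to -0.02) and Zmat3 (-0.69, interval -1.58 to -0.06) the members whose interval lay below 0 (background 9.27%), and a summed ratio of -0.17 (interval -0.34 to 0.00). This rested on the clustering. At resolution 0.5 no urothelial cluster was named intermediate, and the basal cluster was larger (607 and 2456 nuclei). How many of the nuclei called intermediate above it took in was not counted. In this larger cluster 8 of 9 were lower (background 51.5%), with a median of -0.17 and a summed ratio of -0.24 (interval -0.39 to -0.10). There Cdkn1a, Mdm2 and Trp53inp1 had an interval below 0 (background 10.1%) and Bax had its interval above 0 (background 10.8%). In cycling nuclei (354 and 701) 3 of 8 were lower (background 51.8%), the median was 0.11, and the interval of Bax lay above 0 (background 7.80%), at 93.0 CPM (61 UMIs) against 60.6 CPM (58 UMIs), 0.58 (interval 0.08 to 1.16). At resolution 0.5, 5 of 8 were lower in cycling nuclei (background 52.0%) and the median was -0.11, so the direction turned with the clustering. For Bax the interval included 0 in basal (0.42, interval -0.03 to 0.90), intermediate (0.59, interval -0.08 to 1.29) and superficial nuclei (-0.07, interval -0.29 to 0.13). Differences between layers in these ratios were not tested.

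Because of the layers, the pooled ratio depended on how much each contributed. Superficial nuclei were 1234 of the 2222 urothelium-like nuclei in knockout and 1577 of 5093 in control, a layer in which Cdkn1a was high and Phlda3 low in both libraries. Without cluster 7 the Cdkn1a ratio was -0.72 (interval -0.93 to -0.57) in place of -0.38, Sesn2 was at -0.78, Trp53inp1 at -0.90 and Phlda3 at 0.04. Without the 3 clusters that were over 75% from 1 library after scaling for library size (0, 7 and 12), the summed ratio was -0.19 in place of -0.32 and Phlda3 was at 0.00. The ratio of Phlda3 in the pooled class therefore did not hold its direction in either case. Without cluster 7, superficial cluster 0 held 298 of the 1286 knockout nuclei left and 1550 of the 5066 control nuclei. Within cluster 0 Phlda3 was at 16.7 CPM (9 UMIs) against 38.8 CPM (177 UMIs), -1.01 (interval -2.37 to -0.26). In cluster 7 it was at -1.75 (interval -3.50 to -0.07), on 36 knockout and 4 control UMIs.

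Detection of the members together was read within nuclei. Of thinned urothelium-like nuclei in control, 33.7% of those with a Cdkn1a UMI (174 of 517, interval 29.6 to 37.9%) had a UMI of another member, against 31.2% of those without (interval 29.7 to 32.7%). In knockout the shares were 35.7% (71 of 199, interval 29.0 to 42.8%) and 25.5% (interval 23.6 to 27.6%). The intervals of nuclei with and without a Cdkn1a UMI thus overlapped in control and lay apart in knockout. Within superficial nuclei the shares were 36.9% and 36.3% in control, and 36.4% (interval 28.1 to 45.4%) and 25.7% (interval 23.2 to 28.4%) in knockout. Within basal nuclei of the knockout they were 40.0% (12 of 30, interval 22.7 to 59.4%) and 27.3% (interval 22.5 to 32.6%). The knockout intervals thus overlapped within each of these layers. Over all urothelium-like nuclei the intervals of the libraries overlapped among nuclei with Cdkn1a and lay apart among those without it.

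Outside the epithelium fewer members had an interval off 0, on fewer UMIs. The set had 1070 and 1473 UMIs (knockout and control) in smooth-muscle-like and 469 and 337 in fibroblast-like nuclei. In urothelium-like nuclei it had 2800 and 7595. Whether the ratios differ between classes was not tested. In smooth-muscle-like nuclei (1458 and 1941) 7 of 10 members were lower (background 48.6%), with a median of -0.19 against 0.01 for all 13606 genes. Phlda3, at 20.98 CPM (59 UMIs) against 41.8 CPM (139 UMIs), -0.85 (interval -1.46 to -0.55), and Zmat3, at 28.1 CPM (79 UMIs) against 49.0 CPM (163 UMIs), -0.71 (interval -1.21 to -0.41), were the 2 whose interval lay below 0 (background 11.8%), and both passed 1.5-fold (background 2.87%). Bbc3, with 20 UMIs against 9, was higher at 0.65 (interval 0.19 to 2.71), with its interval above 0 (background 11.2%) and past 1.5-fold (background 2.90%). Summed, the set stood at 380.5 against 443 CPM, a ratio of -0.22 (interval -0.33 to -0.10). Urothelium markers, free RNA among them, summed to 5372 and 5765 CPM in these nuclei, with none of the 20 at 0. Cluster 9, whose next best class was urothelium, held 174 and 221 of these nuclei, and without it the summed ratio was -0.21. Without it 4 members had an interval below 0 (background 11.7%), since Cdkn1a (-0.34, interval -0.75 to -0.01) and Ccng1 (-0.37, interval -0.85 to -0.01) joined Phlda3 and Zmat3.

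Fibroblast-like nuclei (933 and 800) showed no difference beyond counting error in any member. Of the 8 with 20 or more UMIs, 4 were lower (background 47.8%) and 4 higher, none with an interval off 0 (background 5.83% below and 6.27% above), and the median was -0.02 against 0.01 for all 11523 genes. Cdkn1a was at 42.5 CPM (52 UMIs) and 55.3 CPM (47 UMIs), -0.34 (interval -0.98 to 0.22). With the free RNA subtracted it was at 0 and 7.55 CPM, so nearly all of this level lay within the free RNA estimate. Endothelium-like nuclei (321 and 361) had 7 measured members, 3 lower (background 50.9%) and 4 higher, with a median of 0.09 and none with an interval off 0 (background 6.04% below and 5.15% above).

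Beyond the 10 members, 63 other genes of the p53 pathway were read in urothelium-like nuclei as 4 lists. Of 18 regulators of p53, 16 were measured, 5 had an interval below 0 and none above, with a median of -0.15. Of 13 further targets in arrest and growth, 12 were measured, 5 below and 3 above, with a median of -0.07. All 14 further targets in cell death were measured, 4 below and 1 above, with a median of 0.10, and all 18 in DNA repair and metabolism, 2 below and 6 above, with a median of 0.09. The lists share no gene with the 10 members, and over all genes 16.2% lay below and 17.6% above.

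The lowest ratios among the 63 were those of Sfn, Trp53i11 and Gtse1. Sfn encodes 14-3-3 sigma, an epithelial protein that holds cells before mitosis, and was at 677 CPM (2877 UMIs) against 1062 CPM (9826 UMIs), -0.65 (interval -0.71 to -0.59). In superficial nuclei it was at -1.08 (interval -1.16 to -1.01) and in basal nuclei at 0.17 (interval -0.00 to 0.35). Trp53i11 was at 48.0 against 76.7 CPM (-0.62), and Gtse1, which carries p53 out of the nucleus in dividing cells, at 9.89 against 17.2 CPM (-0.58). The highest were Plk2, a stress-induced kinase, at 44.5 CPM against 20.4 CPM with 189 UMIs in each library (0.96, interval 0.82 to 1.42), Cpt1c, of the carnitine palmitoyltransferase family, at 16.5 against 6.92 CPM (0.85) and Rprm, a target linked to arrest before mitosis, at 16.9 against 7.89 CPM (0.77). Plk2 was higher in knockout in superficial (1.07), basal (0.86) and intermediate nuclei (1.10), and at 0.25 (interval -0.62 to 1.19) in cycling nuclei. Sfn and Trp53i11 were past 1.5-fold lower (background 2.79%), and Plk2, Cpt1c and Rprm past 1.5-fold higher (background 3.90%). Most of the 63 genes were listed as p53 targets and these were picked as the extremes. Targets at both ends of the list therefore follow from the choice.

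Regulators were also read by layer. Trp53 was at 41.8 against 58.9 CPM in superficial nuclei (-0.45, interval -0.82 to -0.17), where most members were lower too, and at 129.5 against 99.98 CPM in basal nuclei (0.36, interval -0.01 to 0.75). Mdm4 was at -0.02 in superficial, -0.30 in basal, -0.51 in intermediate and -0.31 in cycling nuclei, with intervals below 0 in the last 3. Trp63 was at -0.38 in basal (interval -0.63 to -0.14), -0.38 in intermediate (interval -0.89 to 0.09), -0.32 in cycling (interval -0.64 to -0.02) and 0.06 in superficial nuclei (interval -0.17 to 0.30). In superficial nuclei, where 9 of 10 members were lower, the interval of Trp63 thus included 0. Any link between the levels of these regulators and those of the members was not tested.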

How the data were processed

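Nuclei of 2 pooled ureter samples, 1 per genotype, were analysed. Each table that the authors deposited holds UMI counts as whole numbers for genes by nuclei, with no scaling. The submitters' processing notes list R 4.0.5, Seurat 4.0.5, STAR 2.7.11a with STARsolo and mm10. How introns were counted and barcodes chosen is unstated there, and 500 UMIs was the lowest total of any nucleus. Coordinates came from GENCODE M21, which held 32445 of the 32589 IDs.

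Nuclei needed 300 genes and no more than 5% mitochondrial UMIs, which left 5491 and 8889. Scrublet's threshold marked 0 doublets and had not worked, so the top 5% by score were removed (319 and 516). Leiden clustering (scanpy 1.11.5, igraph 0.11.9) used 2000 variable genes, 30 components, 15 neighbours and resolution 1, with the 73 members and pathway genes left out. A cluster took the class with the highest mean marker fold over the median cluster, given 3 markers at 50 CPM, and its layer from a basal to superficial gap of 0.5. This naming rule was set after the data were seen. Cluster 12 was basal under it and was left out of the layers. The nephron-like cluster (19 knockout and 7 control nuclei) was not read as a class and counted only among all other nuclei and in library totals.

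For each class, summed UMIs of a library were divided by their total. Ratios are log2 of CPM + 5 for genes with 20 or more UMIs, which understates low genes. Intervals are exact (Poisson, conditional binomial, Clopper-Pearson). Nothing was tested between genotypes. The ratio script recovered known ratios on simulated data. Named genes were all members, pathway genes with the 3 highest and 3 lowest ratios, Trp53, Trp63 and Mdm4, and the 5 genes most like Cdkn1a. The 10 members and all lists were chosen with earlier results of these data known. Alternatives covered filters, doublets, scaling, pseudocount, resolution, thinning, free RNA, sex of nuclei and single clusters.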

Additional observations from a re-analysis of the deposited data

How the results depend on the processing

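No paired analysis was possible because each genotype has 1 library. Over 19 alternatives the median log2 ratio of the 10 genes in urothelium-like nuclei lay between -0.36 and -0.18, and 5 to 8 members were lower. The summed ratio, -0.32 as reported, was -0.19 with a stricter nucleus filter, -0.24 with free RNA subtracted, -0.19 in nuclei with Y-linked and no Xist UMIs (332 knockout and 557 control), -0.19 without clusters over 75% from 1 library and -0.44 without cluster 7, the last chosen after seeing the data. Phlda3 changed sign in the Y-linked nuclei (0.24), without the clusters over 75% from 1 library (0.0030) and without cluster 7 (0.041), and Sesn2 in the Y-linked nuclei (0.10). In those nuclei the summed ratio in smooth-muscle-like nuclei was -0.032 with 3 members lower of 5 measured, and in fibroblast-like nuclei a single member was measured (-1.17), so that 1 was lower. The difference in the share of nuclei with a Cdkn1a UMI, -2.61 percentage points at 700 UMIs, was -4.92 at 1000 UMIs and -1.60 at 500. The other values that moved by more than counting error were 21 of single members, and the causes were not tested. Depth limits Eda2r and Bbc3 everywhere and most members in the intermediate layer of the knockout, and 1 pool per genotype limits every difference.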
